A study of Homo sapiens with 4 samples.

Results

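The regions described here are the stretches of the genome that were already replicated in nearly every S-phase cell of both DKO1 and HCT116. The genome was read in bins of 80 kb, each called as replicated or unreplicated in each cell. How far a cell had come through S phase, its progress, was taken as the replicated percent among its called bins. The share of a bin in a line is the percent of called cells in which it was replicated, averaged over 6 strata of 10 points of progress from 20 to 80%, so that lines are compared at like progress. The bins were chosen by that share: it had to be 95% or more in both lines, in bins with a call in 90% or more of DKO1 and of HCT116 cells. This held for 2195 bins, or 175.6 Mb, of the 27142 bins (2171 Mb) that met the call minimum, 8.09% of them. The table held 27704 bins in all. Because the share itself chose the bins, their shares are given as a description and were not tested.

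DKO1 is a derivative of HCT116, a human colorectal cancer cell line, with knockout of the DNA methyltransferase genes DNMT1 and DNMT3B. Remaining activity of either enzyme was not examined. HCT116 without the knockout is the parental line. Both were grown in the same medium, and neither had another treatment. Cells were stained live for DNA content, sorted into G1 and early, mid and late S phase, and equal numbers of the S-phase fractions were pooled for a droplet copy-number assay. There was 1 S-phase library per line, with 207 DKO1 and 322 HCT116 cells, so the lines cannot be told apart from their libraries and no test between them was possible. Cells are not replicates, and DKO1 is described here as 1 line without other clones.

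DNA replication starts at many origins that fire in a set order through S phase. Early-replicating DNA is as a rule gene-rich, open chromatin in the interior of the nucleus, and late-replicating DNA is gene-poor and lies at the nuclear periphery. DNMT1 copies CpG methylation to newly made strands behind the fork, and DNMT3B can methylate unmethylated sites. Regions that are early in most cell types are often called constitutive early domains. Whether the bins described here are early in other cell types was not examined.

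The median cell had a progress of 48.0% in DKO1 and 51.9% in HCT116. Only 1 DKO1 cell and 4 HCT116 cells lay under 20%, so the first part of S phase was thinly covered. A further code, 0, was treated as not called and took 2.80% of calls in DKO1 and 1.08% in HCT116. No cell barcode was shared between the libraries. Coordinates are those of the deposited table, for which the labels name hg19. No annotation of that build was used here, so the bins were not assigned to genes and no sequence is shown.

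The early bins had a mean share of 97.8% in DKO1 and 98.5% in HCT116, with an SD over bins of 1.36 and 1.16 points. The other 24947 bins averaged 46.1% in DKO1 and 46.4% in HCT116. A share of 100% was reached by 132 early bins in DKO1, by 93 in HCT116 and by 25 in both. The share was lower in DKO1 than in HCT116 in 1419 of the 2195 bins, higher in 748 and equal in 28. No such count over all used bins is given here, so this cannot be called particular to the early bins. The limit of 95% cut through a continuous distribution. The lower of a bin's 2 shares lay between 95 and 96% in 335 early bins, and 363 bins just missed the limit with a value between 94 and 95%. Just inside it was a bin on chromosome 17 from 2240001 to 2320000 (95.01% in DKO1 and 99.2% in HCT116), and just outside it one on chromosome 16 from 16000001 to 16080000 (94.998% in DKO1 and 97.5% in HCT116). With a limit of 90% the count was 3840 bins, and with 98% it was 876.

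The early bins were concentrated on a few chromosomes. Among the 21 chromosomes with at least 100 used bins, they made up 38.0% of chromosome 22 (62 of 163 bins), 37.1% of chromosome 19 (216 of 582) and 35.4% of chromosome 17 (278 of 786), against 8.09% over all. The table held 163 bins of chromosome 22, of 430 positions between its first and last bin, so the value covers a part of that chromosome. Chromosome 8 had 21 bins in the table, 11 of them used, and is not among the 21 chromosomes. Chromosomes 15 and 20 followed with 16.4% each. The most early bins in number lay on chromosome 1, with 342 of 2563. Chromosomes 1, 11, 12, 17 and 19 held 54.4% of the early bins and 25.8% of the used bins. Chromosomes 13 and 18, with 968 and 719 used bins, held none, and chromosome 4 held 2 of 1714. Across the 21 chromosomes the percent of early bins followed the density of protein-coding genes, with a Spearman's rho of 0.893 and a Pearson's r of 0.799. The density was taken over whole chromosomes from RefSeq genes of another build, while the table covers only a part of some chromosomes. The 21 points share the same cells, and gene density served earlier to decide which code means replicated, so this is a description only. Of the early bins 6.97% lay within 5 Mb of the first or last bin of their chromosome in the table, against 7.06% of all used bins. Within 10 Mb the values were 16.7% of the early bins and 14.9% of all used bins.

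**Figure D1:**
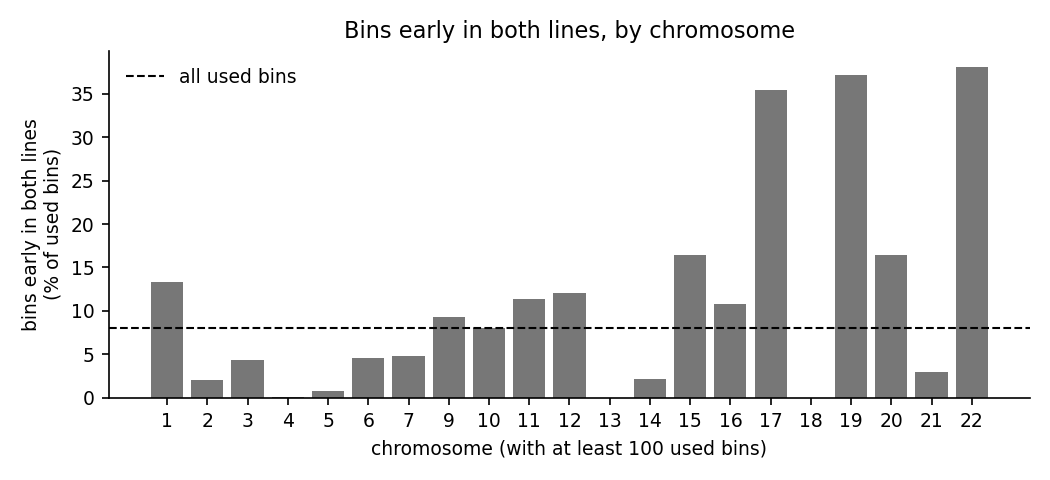
Percent of the used bins of each chromosome (horizontal axis) that were early in both lines (vertical axis). The dashed line marks the 8.09% over all used bins, which chromosomes 17, 19 and 22 exceed with 35.4, 37.1 and 38.0%, while chromosomes 13 and 18 have none.

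Early bins came in long blocks rather than alone. Joining neighbours, and bridging at most 1 position without a used bin, gave 208 runs with a median length of 7 bins. Of all early bins 91.6% lay in the 128 runs of at least 5 bins, and 49.7% in the 34 runs of at least 20 bins. By comparison, the 545 bins that were late in both lines, with a share of 5% or less in each, fell into 101 runs with a median of 3 bins and a longest of 31. That set is smaller, and run lengths were not compared at like number of bins. The codes come from a hidden Markov model, and its part in these lengths was not tested. Only 25 early bins stood alone.

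The longest block spanned 5.76 Mb on chromosome 11 from 63280001 to 69040000, with 72 early bins in succession. Its mean share was 98.3% in DKO1 and 99.2% in HCT116. More than 50% of its called bins were replicated in 194 of 197 DKO1 cells (98.5%, 95.6 to 99.7% by the exact 95% interval), and the same held in 322 of 322 HCT116 cells. The next was on chromosome 20 from 31920001 to 36160000, with 52 bins and a mean share of 99.5% in DKO1 and 98.97% in HCT116. A block of the same number of bins on chromosome 1 from 42960001 to 47120000 had 97.6% in DKO1 and 98.9% in HCT116. In these 3 blocks a cell with most of the block unreplicated was a rare event in either line, which follows largely from the rule.

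A block of 48 bins lay on chromosome 17 from 39600001 to 43440000 (98.9% in DKO1 and 99.2% in HCT116). Another of 48 bins was found on chromosome 3 from 47040001 to 50880000 (98.7 and 98.9%). Chromosome 19 from 46960001 to 50800000 held 46 bins (98.8 and 98.96%), and chromosome 10 from 102480001 to 106000000 held 44 (98.2 and 98.5%). Chromosome 6 held a pair of long blocks. The first, from 32880001 to 36320000, had 43 bins (97.96 and 98.3%), and the next, from 41440001 to 44400000, had 37 (98.4 and 98.5%). On chromosome 15 from 40240001 to 43440000 a block of 40 bins had 99.2% in DKO1 and 98.9% in HCT116. These 10 blocks held 22.0% of the early bins. Within the limit set by the rule, 8 of the 10 had the lower share in DKO1, and the blocks on chromosomes 20 and 15 had the higher one.

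Over the 128 runs of at least 5 bins the mean share ran from 95.1 to 99.8% in DKO1 and from 95.97 to 99.8% in HCT116. It was lower in DKO1 in 89 runs and higher in 39, with a median difference of -0.76 points. These counts too have none over other bins beside them. The difference was lowest on chromosome 17 from 2240001 to 2640000 (95.8% in DKO1 and 99.7% in HCT116) and highest on chromosome 19 from 36000001 to 36560000 (98.4 and 96.7%). Both extremes are smaller than 5 points, as the rule allows no larger gap.

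The early bins that stood alone did not sit in late surroundings. For the 5 lone bins with the lowest flanks, the 10 nearest used bins averaged 88.6% in DKO1 and 84.5% in HCT116 around chromosome 16 from 15120001 to 15200000, 90.8 and 85.1% around chromosome 10 from 134320001 to 134400000, and 91.0 and 89.6% around chromosome 12 from 7280001 to 7360000. Around chromosome 7 from 105600001 to 105680000 they averaged 89.7 and 91.0%, and around chromosome 3 from 45760001 to 45840000, 93.7 and 87.3%. The surroundings of all 5 were early as well, with means below the limit. They included other early bins on chromosomes 12 and 7, where early runs ended at 7120000 and 105440000.

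Cells under 20% progress took no part in the shares that chose the bins, only in the call minimum. They show how soon the early bins replicate. The DKO1 cell, at 9.32% progress, had replicated 40.4% of its 2151 called early bins and 6.77% of the other used bins. The HCT116 cells, at 16.995, 18.1, 19.7 and 19.8% progress, had replicated 88.1, 76.5, 88.7 and 90.5% of the early bins and 11.1, 12.5, 14.0 and 14.0% of the others. In the HCT116 cell with the lowest value, 12.3% of all bins were code 0, against at most 0.679% in the other 3. The early bins made up 34.4% of all replicated used bins in the DKO1 cell and 36.0 to 41.2% in the HCT116 cells, against 8.09% of the used bins. Progress differed between the lines here, so these values do not compare them. Among used bins called in all 4 HCT116 cells, 7.66% were replicated in all 4, and among the early bins 59.4% were (1280 of 2156). Only 8 early bins were replicated in none of the 4.

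In these cells the runs of at least 20 bins had the highest values in DKO1 and, by the median cell, in HCT116. In HCT116 the median cell had replicated 92.3% of the early bins in runs of at least 20 bins, 87.9% in runs of 10 to 19, 82.5% in runs of 5 to 9, 73.9% in runs of 2 to 4 and 73.4% of the lone bins. In the single DKO1 cell the order was less regular, with 49.8% in runs of at least 20 bins, 27.3% in runs of 10 to 19, 36.7% in runs of 5 to 9, 32.3% in runs of 2 to 4 and 39.1% of the lone bins. The lone bins were 25 in number, and in the HCT116 cells from 68 to 96% of them were replicated, against 77.1 to 94.9% of the bins in runs of at least 20. Of the 128 runs of at least 5 bins, 83 were mostly replicated in all 4 HCT116 cells, 37 in 3 of them and 8 in 2 or fewer. The DKO1 cell had replicated most of 46 of the 128, among them 6 of the 10 longest blocks, and not the longest one on chromosome 11.

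The interior of a run was ahead of its edges. In runs of at least 5 bins the DKO1 cell had replicated 30.8% of the outermost bins, 33.1% of those 2 to 4 bins in, 41.1% of those 5 to 9 bins in and 58.5% of those 10 or more bins in. The HCT116 cells had replicated 66.3 to 77.7% of the outermost bins, 77.0 to 88.8% at 2 to 4 bins, 79.8 to 95.7% at 5 to 9 bins and 78.3 to 98.5% at 10 or more bins. The rise from edge to interior was present in all 5 cells, except that the HCT116 cell at 18.1% progress was slightly lower at 10 or more bins (78.3%) than at 5 to 9 (79.8%). Edges are where the share fell under 95%, so the rule itself places somewhat later bins there. In the stratum from 20 to 30%, which the rule did use, the outermost bins were replicated in 92.4% of calls in DKO1 and 91.2% in HCT116, and those 10 or more bins in were at 98.3 and 97.8%.

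**Figure D2:**
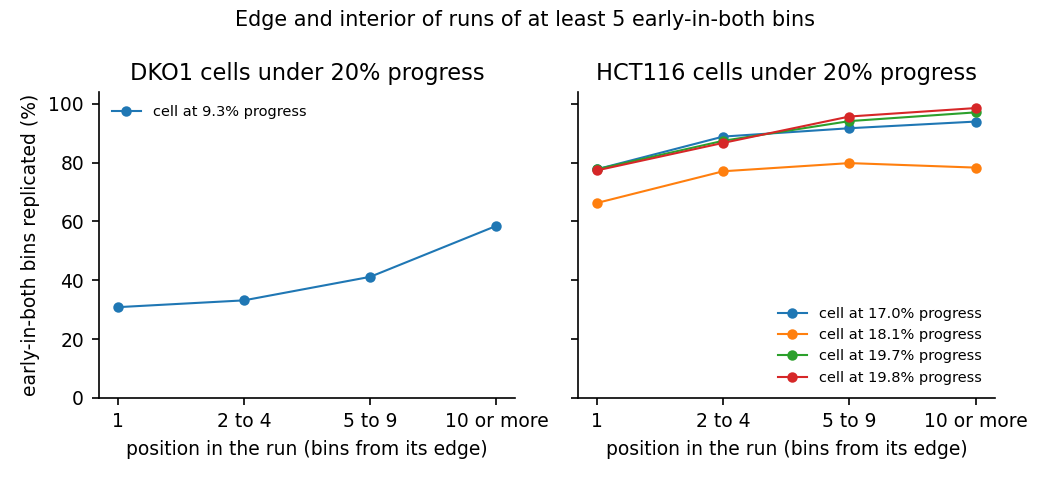
Percent of called early bins replicated (vertical axis) by position in the run (horizontal axis, bins from its edge), 1 line per cell, for the DKO1 cell and the 4 HCT116 cells under 20% progress. Values are lowest at the edge in each cell, with 30.8% in the DKO1 cell and 66.3 to 77.7% in the HCT116 cells.

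From 20% progress on, nearly all early bins were replicated. The mean percent of early bins still unreplicated per cell was 4.10% in DKO1 and 4.18% in HCT116 at 20 to 30% progress. At 30 to 40% it was 3.61% in DKO1 and 1.73% in HCT116, at 40 to 50% 1.99 and 0.700%, at 50 to 60% 1.36 and 0.863%, and at 60 to 70% 1.75 and 0.780%. At 70 to 80%, with 8 DKO1 and 13 HCT116 cells, it was 0.273 and 0.760%. The mean was thus higher in DKO1 in the 4 strata from 30 to 70%, and lower in the first and last. Averaged over the strata, 2.17% of the early bins were unreplicated in DKO1 and 1.502% in HCT116, a difference of 0.67 points. These values chose the bins and are bounded by the limit of 5%. The gap was 1.27 points with a limit of 90% and 0.09 points with a limit of 98%.

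The means were set by a minority of cells. The median cell at 40% progress or more had 0.0935% of its early bins unreplicated in DKO1 and 0.0911% in HCT116, about the same. No early bin at all was unreplicated in 55 of 152 such DKO1 cells (36.2%, with an exact interval of 28.6 to 44.4%), against 97 of 235 HCT116 cells (41.3%, 34.9 to 47.9%). More than 5% of the early bins were unreplicated in 17 DKO1 cells (11.2%, 6.65 to 17.3%) and in 8 HCT116 cells (3.404%, 1.48 to 6.60%). The highest value was 19.3% in DKO1 and 18.5% in HCT116. The tenth of cells with the most such calls, 15 DKO1 and 24 HCT116 cells, held 63.9% of them in DKO1 and 71.4% in HCT116. The intervals cover counting error of cells only.

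**Figure D3:**
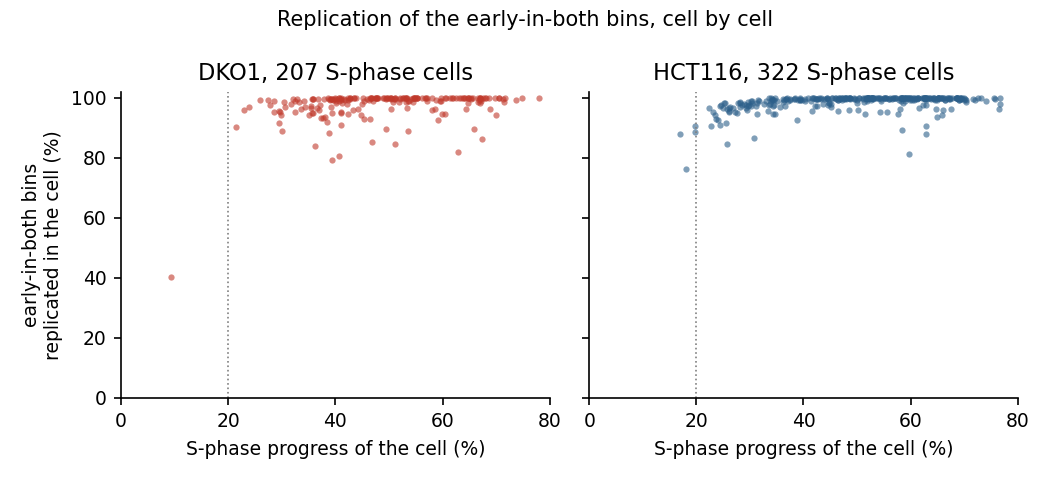
Percent of called early bins replicated (vertical axis) against S-phase progress (horizontal axis), 1 point per cell, with 207 DKO1 cells on the left and 322 HCT116 cells on the right. The dotted line at 20% marks the start of the strata used to choose the bins. Past 40% progress most cells lie near 100%, and the lowest have 19.3% of early bins unreplicated in DKO1 and 18.5% in HCT116.

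Unreplicated calls in these cells mostly covered either a whole block or a small part of it. Taking each run of at least 5 called early bins in each cell at 40% progress or more, 97.1% of 19094 such runs in DKO1 and 98.3% of 30002 in HCT116 had no unreplicated bin. Among the runs with an unreplicated bin, 558 in DKO1 and 523 in HCT116, every called bin was unreplicated in 288 in DKO1 (51.6%) and 192 in HCT116 (36.7%). Less than 25% of the bins were unreplicated in 173 in DKO1 (31.0%) and 249 in HCT116 (47.6%). Few lay in between. Entirely unreplicated runs were 1.51% of all such runs in DKO1 and 0.640% in HCT116. The codes come from a hidden Markov model, which favours the same state in neighbouring bins, and its part in this pattern was not tested.

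**Figure D4:**
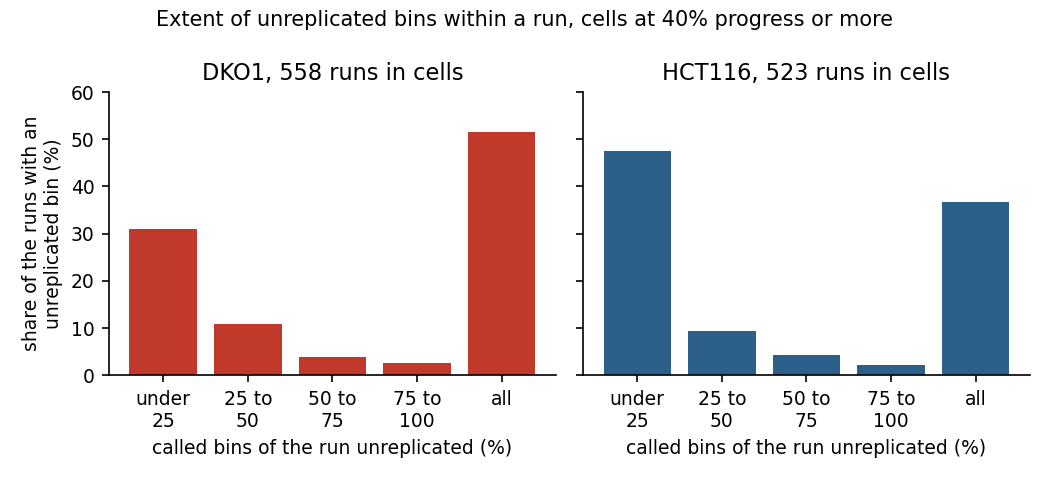
Runs of at least 5 early bins in cells at 40% progress or more that held an unreplicated bin, by the percent of their called bins that were unreplicated (horizontal axis), as a share of such runs (vertical axis), for DKO1 on the left and HCT116 on the right. Both lines have most runs at the ends of the axis, with 51.6% entirely unreplicated in DKO1 and 36.7% in HCT116.

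Entire chromosomes contributed much of this. Among the 18 chromosomes with at least 10 early bins, 33 of 2708 chromosomes of DKO1 cells and 34 of 4218 chromosomes of HCT116 cells had most of their called early bins unreplicated (50% or more), in 22 of 152 DKO1 cells (14.5%, with an exact interval of 9.30 to 21.1%) and 28 of 235 HCT116 cells (11.9%, 8.07 to 16.8%). These few chromosomes held 53.0% of the unreplicated early calls in DKO1 and 52.1% in HCT116. On them, a median of 29.2% of the remaining bins was replicated in DKO1 and 25.4% in HCT116, against 54.0 and 56.8% on the other chromosomes. Lateness on them was thus not limited to the early bins. Without these chromosomes, a setting added after the data were seen, 0.770% of the early bins was unreplicated in DKO1 and 0.378% in HCT116 at 40% progress or more, against 1.62 and 0.785% with them. Copy number of these chromosomes in single cells was not examined, and its part in these calls was not tested.

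Such chromosomes were few in either line, and the exact intervals of the lines overlapped on each of the 18 chromosomes. On chromosome 1, with 342 early bins, 5 of 152 DKO1 cells (3.29%, 1.08 to 7.51%) and 1 of 235 HCT116 cells (0.426%, 0.0108 to 2.35%) had most early bins unreplicated. Those 5 cells gave 1362 of the 5302 unreplicated early calls of DKO1. Chromosome 5, with 15 early bins, had 4 such DKO1 cells and 8 such HCT116 cells, and chromosome 21, with 12 early bins, had 6 and 5. Among the runs of at least 5 bins, those with the highest percent of unreplicated calls in DKO1 lay on chromosome 7 from 150640001 to 151200000 (6.20% in DKO1 and 2.23% in HCT116), on chromosome 21 from 45040001 to 45440000 (5.52 and 1.94%), further along it from 46480001 to 46880000 (5.21 and 3.50%). They were followed by a run on chromosome 7 from 128960001 to 129840000 (5.17 and 0.997%), then by that on chromosome 1 from 6000001 to 6880000 (4.82 and 2.24%). Among the same runs the highest in HCT116 were on chromosome 15 from 78800001 to 79200000 (2.72% in DKO1 and 4.14% in HCT116), the second of the runs on chromosome 21, chromosome 9 from 135840001 to 136320000 (3.51 and 3.23%), chromosome 5 from 131600001 to 132160000 (2.60 and 3.21%) and chromosome 1 from 225920001 to 226560000 (3.58 and 3.14%).

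Over all cells, 71.5% of the unreplicated early calls in DKO1 and 49.7% in HCT116 lay in stretches of at least 5 neighbouring early bins. In cells at 40% progress or more the values were close, with 78.5% in DKO1 and 74.4% in HCT116. In cells under 40% they were 64.9% in DKO1 and 33.6% in HCT116. The DKO1 cell at 9.32% progress alone gave 1283 of the 5587 calls of DKO1 cells under 40%. Without the cells under 20%, a setting added after the data were seen, the values were 58.5% in DKO1 (54 cells) and 32.0% in HCT116 (83 cells). The cell with the most calls there gave 425 of 4304 in DKO1 and 336 of 4949 in HCT116. Chromosomes with most early bins unreplicated were not set aside in these cells, and the part of the hidden Markov model was not tested.

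Pairs of cells differed little in the early bins, which follows largely from the rule. The paired cells lie within the strata that chose the bins, and a bin replicated in nearly every cell can differ in few pairs. The same holds for the bins late in both lines, which were unreplicated in nearly every cell. Among cells at 40 to 60% progress, paired where their progress lay no more than 5 points apart, 2 DKO1 cells differed in 3.17% of the early bins on average (105 cells, 2336 pairs) and 2 HCT116 cells in 1.44% (141 cells, 4331 pairs). In the other used bins pairs differed in 24.8% of bins in DKO1 and 18.5% in HCT116, and in the bins late in both lines in 3.67 and 2.42%. The contrast with the other used bins is therefore a description only, and the gap between the lines was not tested apart from their shares. When cells were limited to those with no more than 1% of bins at code 0, the early bins differed in 1.099% in DKO1 and 0.615% in HCT116, so the gap between the lines was 0.48 points there, against 1.74 points over all such cells.

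Outside the early runs the share fell gradually with distance, and it fell over a longer distance in DKO1. The bins next to a run of at least 5 early bins had a mean share of 94.9% in both lines (227 bins). At 400 kb from the edge it was 83.5% in DKO1 and 78.9% in HCT116 (181 bins), at 800 kb 69.0 and 64.3% (152 bins), and at 2000 kb 53.9 and 51.3% (98 bins). Each side was followed only to the next early bin, so the means at different distances are over different sets of bins. On the 75 sides where the share came below 50% in both lines within 2000 kb, it did so at a median of 800 kb in DKO1 and 640 kb in HCT116. It was reached nearer to the run in HCT116 on 48 sides, nearer in DKO1 on 10 and in the same bin on 17. Over the 1879 bins within 960 kb of a run the mean share was 79.7% in DKO1 and 76.2% in HCT116, a difference of 3.54 points.

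**Figure D5:**
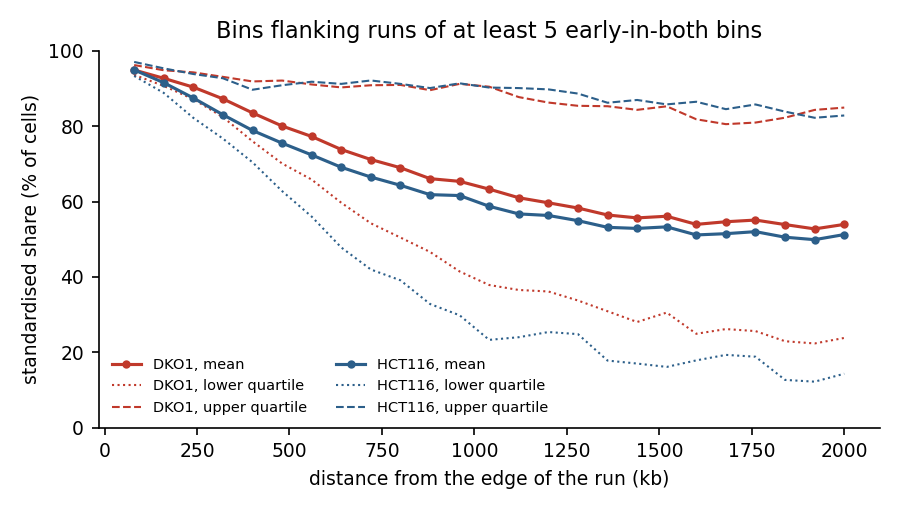
Standardised share (vertical axis) of bins outside runs of at least 5 early bins by distance from the run (horizontal axis, kb), as mean, lower and upper quartile over bins, in DKO1 and HCT116. Sides end at the next early bin, which leaves 227 bins at 80 kb and 98 at 2000 kb. The means start together at 94.9%, and at 800 kb stand at 69.0% in DKO1 and 64.3% in HCT116, where the lower quartiles are 50.5% in DKO1 and 39.1% in HCT116.

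Large differences in these flanks went mostly one way. A share at least 15 points higher in DKO1 was found in 182 of the 1879 flanking bins (9.69%), against 6.72% of all used bins, and a share at least 15 points lower in 14 (0.745%), against 7.82% of all used bins. Bins elsewhere in the genome with a share of 50 to 95% in HCT116 did not show this. At 25 to 50% in HCT116, flanking bins averaged 51.1% in DKO1 and 38.4% in HCT116 (174 bins), and other bins 38.0 and 37.4% (4191 bins). In that class 37.4% of the flanking bins were at least 15 points higher in DKO1 and 0% lower. Of the other bins in it, 10.3% were higher and 7.06% lower. Flanking bins at 50 to 75% in HCT116 averaged 71.7% in DKO1 and 64.4% in HCT116 (343 bins), and other bins of that class 56.6 and 62.8% (4511 bins). Flanking bins at 75 to 95% averaged 89.6 and 87.8% (939 bins), and the others 77.8 and 85.6% (4592 bins). The rule requires the neighbouring run to be early in DKO1 too, and shares change gradually along the chromosome, so these flanks were in part chosen for a high share in DKO1.

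More bins were early in HCT116 than in DKO1. A share of 95% or more was reached by 2485 used bins in DKO1 (9.16%) and by 3545 in HCT116 (13.1%). The bins early in both were 88.3% of the DKO1 list and 61.9% of the HCT116 list. The 1350 bins early in HCT116 only had a median share of 91.9% in DKO1 (quartiles 89.1 and 93.6%) and 97.1% in HCT116, so most missed the limit by a few points. The 290 bins early in DKO1 only had a median of 96.2% in DKO1 and 92.9% in HCT116. Of the bins early in DKO1 only 80.7% lay within 5 bins of a bin early in both, and of those early in HCT116 only 28.9%, against 5.66% of all used bins that were not early in both. Bins early in DKO1 only thus mostly lay within 5 bins of a shared early bin, while most bins early in HCT116 only lay farther away. This distance was taken to any shared early bin, lone ones included, and does not measure bordering a run.

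Among the bins early in HCT116 only, 91 had a share at least 15 points lower in DKO1. This is 6.74% of the 1350, near the 7.82% of all used bins. They formed 34 stretches on 12 chromosomes. The 4 longest are named, a choice made after the values were seen. On chromosome 2 from 203280001 to 204080000, 10 bins had 77.3% in DKO1 and 97.9% in HCT116. On chromosome 12 from 116800001 to 117440000, 8 bins had 74.3 and 96.8%. On the same chromosome from 88960001 to 89520000, 7 bins had 56.4% in DKO1 and 97.3% in HCT116, and on chromosome 2 from 182480001 to 183040000 7 bins had 64.9 and 97.8%.

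Early bins were seldom code 0 in HCT116 and more often in DKO1. Code 0 took 1.96% of calls in the early bins in DKO1 and 0.319% in HCT116, a difference of 1.64 points. In the other used bins it took 2.44 and 0.836%, a difference of 1.61 points. The excess in DKO1 in points was therefore close to that of other bins, on a lower base in HCT116. Code 0 was at least 2 points higher in DKO1 in 625 of the 2195 early bins (28.5%), against 32.6% of all used bins, a share near the background. No early bin was code 0 in 116 of 207 DKO1 cells (56.0%, with an exact interval of 49.0 to 62.9%), against 289 of 322 HCT116 cells (89.8%, 85.9 to 92.8%). The rule limits code 0 to 10% of cells in each bin. When cells were limited to those with no more than 1% of bins at code 0, the difference was 0.15 points. That limit itself holds code 0 near 0 in both lines, so the smaller difference follows from it. The value is also over 4367 bins chosen anew from those cells with strata from 30 to 70%, not over the 2195.

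The excess was uneven between early blocks, and certain blocks were code 0 from end to end. In 10 of the 128 runs of at least 5 bins, all on chromosomes 3, 11 and 19, every bin was code 0 in at least 10 DKO1 cells. No run was so in more than 4 HCT116 cells. Stretches of other used bins were not counted in this way, so this cannot be called particular to early blocks. The highest code 0 of a single bin in DKO1 was 8.70% among the early bins and 9.66% among the other used bins. The block on chromosome 3 from 47040001 to 50880000 was entirely code 0 in 15 of 207 DKO1 cells (7.25%, 4.11 to 11.7%) and in 0 of 322 HCT116 cells, which allows a share of up to 0.932% when 3 cells are taken as the limit of a count of 0 (the exact interval ends at 1.14%). In those 15 cells the unbroken stretch of code 0 around it had a median length of 11.1 Mb, and a median of 9.13% of the other bins of chromosome 3 was code 0. The run on chromosome 19 from 10000001 to 11760000 was entirely code 0 in 13 DKO1 cells and in 0 of 322 HCT116 cells, with the same limits, and with a median stretch of 7.28 Mb. The longest block, on chromosome 11, was so in 10 DKO1 cells and no HCT116 cell, with a median stretch of 12.3 Mb.

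Among the runs of at least 5 bins, those with the highest excess of code 0 in DKO1 were that on chromosome 19 from 10000001 to 11760000 (8.12% in DKO1 and 0% in HCT116), those on chromosome 3 from 47040001 to 50880000 (7.25 and 0%), from 51440001 to 53440000 (7.15 and 0%) and from 57600001 to 58320000 (6.76 and 0%), and that on chromosome 19 from 4640001 to 5200000 (6.35 and 0%). Of the 16 DKO1 cells with such a run on chromosome 19, 10 also had one on chromosome 11, while of the 15 with one on chromosome 3 1 had one on chromosome 19 and none on chromosome 11. The 34 DKO1 cells with any such run had code 0 in a median of 3.07% of all bins, against 1.72% in the other DKO1 cells, and progress from 29.8 to 70.5%. Code 0 is not defined in the table, and neither thin coverage nor copy number of these segments was tested.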

How the data were processed

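The authors deposited 1 state code (0, 1 or 2) per 80 kb bin and S-phase cell. The name of the deposited table calls it binarised output of a hidden Markov model, so neighbouring calls are not independent. Builds hg19 and GRCh37 appear in the submitters' processing notes, as do the tools bedtools 2.26.0, SAMtools 1.10 and Cell Ranger. The sources used here give neither the software of the model, nor its filters, nor reads per cell, and depth is unknown. Code 2 was read as replicated, 1 as unreplicated and 0 as not called. The 2 G1 libraries were not analysed here.

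Shares, runs, flanks and pair differences were computed with Python 3.11.15, numpy 2.4.6, pandas 2.3.3 and scipy 1.17.1, and checked on simulated data. Each line is 1 library, so no test was made. Intervals are exact (Clopper-Pearson, 95%) and reflect only how many cells were counted. No doublet caller was run. Regions were named by rule: the 10 longest runs, and, among runs of at least 5 bins, the 5 with the highest code 0 excess in DKO1 and the 5 with the highest percent of unreplicated calls in each line, and the 5 lone bins with the lowest flanks. The early bins and all lists were chosen with earlier results of these data known. Gene lists were not run for want of an annotation of this build. Alternatives changed the share limit, call minimum, code 0, strata, progress, cells and run lengths.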

Additional observations from a re-analysis of the deposited data

How the results depend on the processing

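No value changed sign under any alternative run. The count of early bins, 2195 as reported, was 3840 with a share limit of 90%, 876 with 98%, 998 with a call minimum of 99%, 3333 without the stratum from 20 to 30% and 4367 from cells with no more than 1% code 0, over strata from 30 to 70% (61 DKO1 and 188 HCT116 cells); the first 3 follow from the stricter or looser limits, and otherwise the cause was not tested. The other 12 alternatives stayed within 1.5 times. In the DKO1 cell under 20% progress the early bins replicated, 40.4% as reported, were 35.1% with a limit of 90%, 48.4% with 98%, 36.6% with the 99% call minimum, 42.7% without strata, 37.2% without outlying chromosomes of cells, 37.0% without the stratum from 20 to 30% and 73.0% over the 4 DKO1 cells under 25% progress, with bins chosen from 30% on; causes were not tested. The mean of the 4 HCT116 cells, 86.0% as reported, was 77.0% with a limit of 90%, 92.6% with 98%, 78.9% with strata from 30 to 70% and 76.9% without the stratum from 20 to 30%. Unreplicated early calls in stretches of at least 3 bins were 86.4% in DKO1 and 70.5% in HCT116, and in stretches of at least 10 bins 46.8% in DKO1 and 29.0% in HCT116. The gap in unreplicated early calls ran from 0.09 to 1.27 points and that in code 0 from 0.15 to 1.74 points, both higher in DKO1. The lowest gap in code 0 came from the cells with no more than 1% code 0, a limit that itself lowers it. An alternative was judged against the exact interval with cells as the unit, which is wide, except that the DKO1 cell under 20% was judged over its called bins and the 4 HCT116 cells by their SD. No paired analysis was possible because each line has 1 library. Leaving out the cells with code 0 in over 10% of bins, the cells under 20% progress for long stretches, and chromosomes of a cell with most early bins unreplicated, was chosen after seeing the data. Depth per cell is unknown, and DKO1 and HCT116 cannot be told apart from their libraries.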
